A study of Homo sapiens with 6 samples.

Results

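Expression of 52 genes of the DNA replication machinery was measured in the human osteosarcoma cell lines KHOS and U-2OS. The members were every gene of the replication list to which the annotation of the array assigned a probe set, and all 52 were found among the 19775 genes with a probe set of their own symbol, through 101 probe sets. The KHOS line was made by transformation with Kirsten sarcoma virus, whereas U-2OS was derived from another osteosarcoma. In each line 3 conditions were compared: cells labelled control, cells transfected with the miR-null vector (pEP-miR-Null) and cells transfected with the miR-1 vector (pEP-miR-1). Vectors were delivered with Lipofectamine LTX and Plus Reagent for 48 hours, and RNA from 3 flasks was pooled for each array. No vector is named in the labels of the control cells, and the sources used here do not give whether these received the transfection reagent. Each line and condition had 1 Affymetrix U133 Plus 2.0 array, so the 6 arrays hold no replicate within a line, and p-values rest on the spread among arrays of pooled RNA rather than among cultures.

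Replication is licensed in G1, when the origin recognition complex (ORC) with CDC6 and CDT1 loads the MCM2-7 helicase onto DNA. In S phase CDC45 and the GINS complex convert the loaded ring into an active helicase, primase and the DNA polymerases copy the opened strands on the PCNA clamp, and enzymes of nucleotide supply, Okazaki fragment maturation and chromatin assembly act behind the fork. Many of these genes are transcribed under E2F factors as cells enter S phase, so their mRNA levels are commonly read as a measure of how many cells of a culture are cycling. In RNA from whole cultures, fewer cells that express a gene and less RNA per cell cannot be told apart.

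All values below are log2 expression, and a difference of 1 is a doubling. Over all probe sets, correlations were 0.978 to 0.996 between arrays of one line and 0.910 to 0.937 between lines. Array medians lay between 4.98 and 5.15. All 52 members lay above the minimum level of 5.11 used for the 12958 genes tested. Of the mesenchymal and osteoblast markers 6 of 8 reached that level, VIM and COL1A1 among them, while COL1A2 and ALPL, an osteoblast phosphatase, did not on average. Of the epithelial markers 3 of 6 reached it (KRT18 at 12.28 to 12.87, EPCAM and CLDN4), of the blood markers 3 of 5 on the table (LAPTM5 at 8.93 to 9.38 in KHOS, HBB and CD3E) and of the endothelial markers 2 of 5 (PECAM1 and TIE1). The defining markers CDH1 (3.95 to 4.45), PTPRC (3.53 to 3.75) and CDH5 (3.59 to 3.89) lay below it on every array.

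The first comparison set all 4 vector arrays against both control arrays, with the line as a term. Each line and condition had 1 array, so the arrays of both vectors stood together as 1 condition. The spread behind the SEs, intervals and p-values came from differences between the vectors within a line and between the lines. It did not come from replicates of a vector. It is given first because most members shared a direction there. On the vector arrays 50 of the 52 members had a lower fitted level than on the control arrays, with a median difference of -0.59, against -0.03 for all genes tested. The largest differences were in E2F8, a repressor of the E2F family (-1.17 ± 0.21, SE, a 2.25-fold lower level), HELLS, a chromatin remodeller needed for DNA methylation (-1.13 ± 0.18, 2.19-fold lower), MCM6 of the replicative helicase (-0.97 ± 0.15, 1.96-fold lower) and POLA1, the catalytic subunit of polymerase alpha (-0.91 ± 0.20, 1.88-fold lower). ORC6, a small ORC subunit, and GINS3, a GINS subunit, were the members with a higher fitted level, by 0.34 ± 0.13 and 0.29 ± 0.13.

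None of the 52 members passed the threshold of 0.05 on limma's adjusted p, where 62 of all genes (0.478%) did. The lowest adjusted p was 0.0515, shared by MCM6, PCNA, RFC5, POLE2, UHRF1, HELLS and CLSPN. An adjusted p under 0.10 was reached by 29 members, a level at which all genes were not counted. At an unadjusted limma p under 0.05, 40 members were lower and ORC6 was higher, and the share of lower genes was 76.9% of members against 13.3% of all genes tested. Without the KHOS control array the fitted change rests on U-2OS alone, with a median member change of -0.65. Without the U-2OS control array it rests on KHOS alone (-0.50). Other settings of limma gave 0 to 23 members passing, all of them lower, and the share of all genes passing is not given beside them. The exact two-sided Mann-Whitney test of the design text called 0, with a smallest possible p of 0.133.

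The 2 lines were then read separately. The median member change was -0.50 in KHOS (all genes -0.01) and -0.65 in U-2OS (all genes -0.10). Both vector arrays lay below the control array of their line for 48 members in KHOS (background 40.5%), for 47 in U-2OS (background 51.2%) and for 45 in both lines, 86.5% of the members against 25.1% of all genes. A difference of at least 1.2-fold, the size named in the series' design text, was reached downwards in both lines by 37 members (71.2%, against 9.45% of all genes). In 24 members all 4 vector arrays lay below both control arrays, an order that was not counted over all genes. Among them were MCM2, MCM3, MCM5, MCM6, MCM7, PCNA, RRM2 and TYMS. Over the 52 members the change in KHOS and the change in U-2OS correlated at r = 0.591 (rho = 0.538), a description over genes that share the same arrays.

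**Figure D1:**
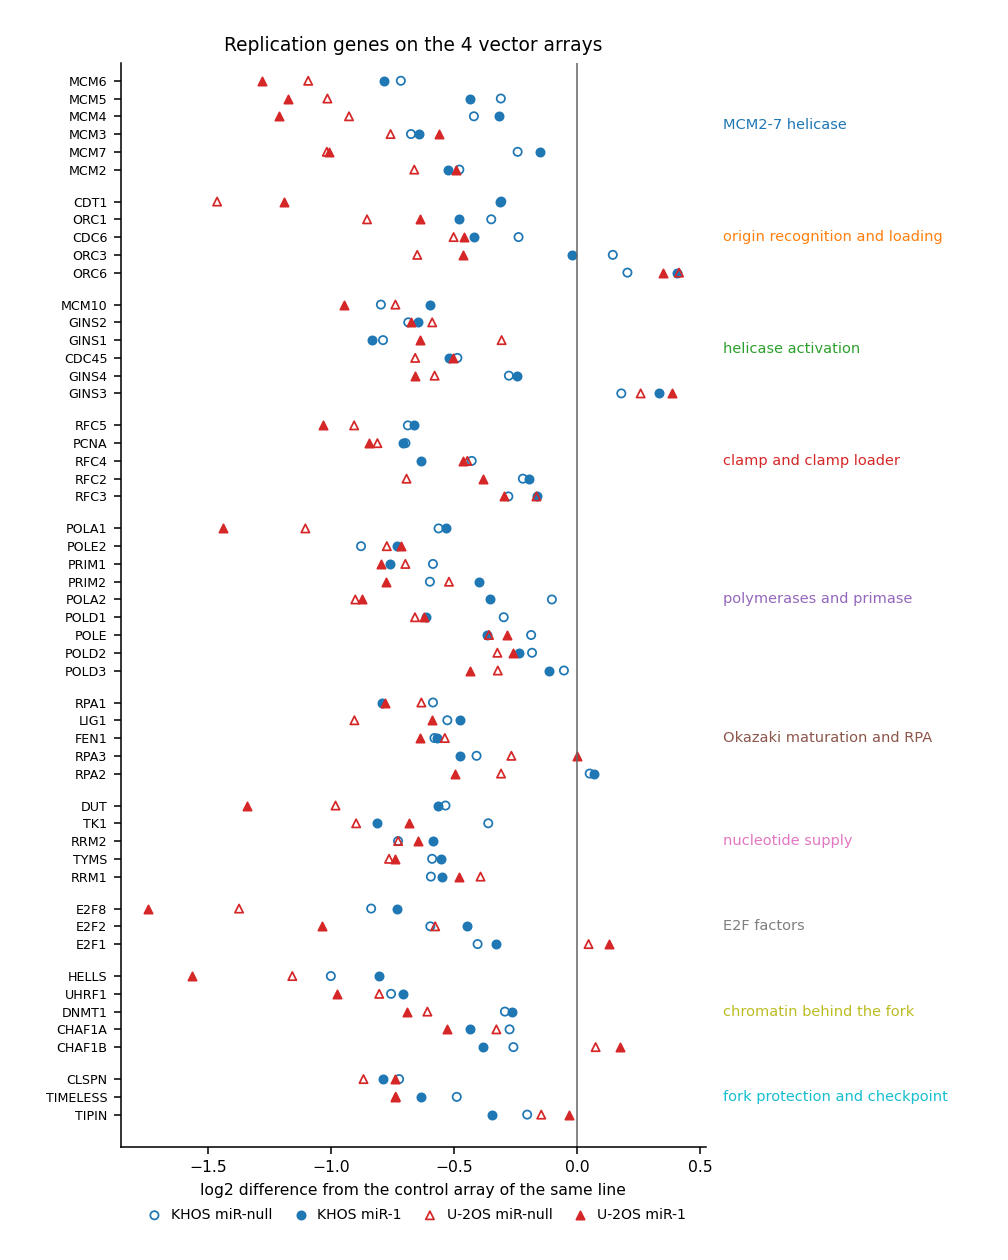
Log2 difference of each of the 4 vector arrays from the control array of its own line, for all 52 members grouped by role; circles are KHOS, triangles U-2OS, open symbols miR-null and filled symbols miR-1, with 1 array per symbol. Most symbols lie left of 0, all 4 symbols of ORC6 and GINS3 lie right of it, and E2F1 and CHAF1B have the lines on opposite sides.

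Several measures of the arrays moved with the vector. The 18 hybridization spike-in probe sets averaged, for control, miR-null and miR-1 in that order, 9.76, 10.13 and 9.93 in KHOS and in U-2OS 10.81, 11.33 and 11.65. A probe set for the 5′ end of 28S ribosomal RNA read 13.68, 14.07 and 14.49 in KHOS, against 13.79, 14.58 and 14.86 for U-2OS. Both measures were higher on every vector array than on the control array of its line. The interquartile range of the values was 3.24, 3.32 and 3.35 in KHOS, where the vector arrays were wider, and 3.07, 2.84 and 2.75 in U-2OS, where they were narrower. The mean of the mesenchymal and osteoblast markers was 9.57, 9.40 and 9.41 in KHOS and, in U-2OS, 9.18, 8.45 and 8.28, in the same direction as the replication genes. Single markers did not all share it. RUNX2 was higher with a vector in KHOS (8.98, 9.85 and 9.83) and lower in U-2OS (6.74, 4.72 and 4.23). In U-2OS COL1A2 and ALPL, both below the minimum level, were slightly higher with a vector. The other listed markers were lower in each line. The 3′ minus 5′ difference of ACTB, a measure of RNA integrity, was 2.68, 2.89 and 2.90 in KHOS and, in U-2OS, 2.40, 2.64 and 2.49, higher on every vector array than on its control. That of GAPDH was 0.55, 0.59 and 0.53 in KHOS, against 0.42, 0.48 and 0.46 for U-2OS, and so lower with miR-1 in KHOS. The part of the spike-ins, the ribosomal RNA, the RNA integrity and the markers in the result was not tested. With the arrays made equal in spread by quantile normalization, the median member change was -0.53 in KHOS and -0.44 in U-2OS, and 45 members were lower in both lines against 46 as deposited.

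Promoter sequences were set beside these shared directions. Of the 52 members 45 had a promoter in the RefSeq table (GRCh38.p14), each 250 bases before to 50 bases after the start. MCM4, MCM5, GINS4, POLD3, RPA2, RPA3 and E2F8 had none there. The words TTTCCCGC, TTTGGCGC, TTTGCCGC and TTTCGCGC, forms of the E2F site, were searched on both strands. At least 1 was present in 24 of the 45 members (53.3%), in 10 of 52 other replication genes (19.2%) and in 671 of the 15384 array genes with a promoter (4.36%). The word CCAAT, bound by NF-Y, was present in 60% of members and 36.1% of array genes, and TTTGAA, a cell cycle element of G2/M genes, in 2.22% and 11.9%. The words can overlap on opposite strands, as in MCM6, whose 4 matches lie in 2 places. The median vector change was -0.65 for the 24 members with an E2F word and -0.57 for the 21 without.

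Of the members with the largest differences, HELLS, MCM6 and POLA1 are shown with the E2F words in capitals. Their promoters lie at chr10:94545538-94545837 (plus strand), chr2:135876394-135876693 (minus strand) and chrX:24693668-24693967 (plus strand) of GRCh38.p14, and each is written 5′ to 3′ along its gene.
HELLS: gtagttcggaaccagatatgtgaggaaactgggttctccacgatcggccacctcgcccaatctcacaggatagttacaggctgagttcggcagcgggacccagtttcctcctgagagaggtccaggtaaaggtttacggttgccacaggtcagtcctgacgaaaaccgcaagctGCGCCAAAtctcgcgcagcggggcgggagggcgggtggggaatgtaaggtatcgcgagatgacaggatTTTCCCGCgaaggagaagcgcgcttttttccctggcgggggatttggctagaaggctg
MCM6: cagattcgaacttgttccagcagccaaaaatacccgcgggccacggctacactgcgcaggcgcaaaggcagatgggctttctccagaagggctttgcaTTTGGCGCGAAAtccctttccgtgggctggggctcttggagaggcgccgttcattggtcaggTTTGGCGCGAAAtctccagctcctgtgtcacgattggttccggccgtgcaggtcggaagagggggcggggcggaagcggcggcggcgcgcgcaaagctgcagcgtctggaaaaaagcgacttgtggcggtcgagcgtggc
POLA1: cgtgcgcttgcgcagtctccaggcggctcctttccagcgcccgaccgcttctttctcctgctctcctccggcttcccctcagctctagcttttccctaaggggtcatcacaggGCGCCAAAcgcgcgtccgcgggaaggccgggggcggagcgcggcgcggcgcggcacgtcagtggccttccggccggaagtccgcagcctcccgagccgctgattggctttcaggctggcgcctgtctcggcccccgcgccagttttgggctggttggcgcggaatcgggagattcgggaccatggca
MCM6 holds the same 12-letter run at both places, and POLA1 holds a single word.

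ORC6 and GINS3, the members that were higher on the vector arrays, are shown for comparison with the same marking. E2F1 is shown with them, since the lines differed in direction on the probe set used for it. They lie at chr16:46689409-46689708 (plus strand), chr16:58392221-58392520 (plus strand) and chr20:33686336-33686635 (minus strand) of the same build.
ORC6: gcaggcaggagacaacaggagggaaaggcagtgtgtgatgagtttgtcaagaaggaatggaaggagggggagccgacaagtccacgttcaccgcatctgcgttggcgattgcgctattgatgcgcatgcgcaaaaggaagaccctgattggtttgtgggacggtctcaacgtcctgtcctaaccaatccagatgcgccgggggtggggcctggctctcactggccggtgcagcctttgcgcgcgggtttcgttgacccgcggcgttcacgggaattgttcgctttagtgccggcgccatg
GINS3: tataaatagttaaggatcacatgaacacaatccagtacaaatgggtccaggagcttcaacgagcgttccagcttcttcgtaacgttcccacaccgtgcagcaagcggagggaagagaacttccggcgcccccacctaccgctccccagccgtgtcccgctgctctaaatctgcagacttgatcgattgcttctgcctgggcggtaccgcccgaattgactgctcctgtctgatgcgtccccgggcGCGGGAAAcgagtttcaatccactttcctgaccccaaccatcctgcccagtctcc
E2F1: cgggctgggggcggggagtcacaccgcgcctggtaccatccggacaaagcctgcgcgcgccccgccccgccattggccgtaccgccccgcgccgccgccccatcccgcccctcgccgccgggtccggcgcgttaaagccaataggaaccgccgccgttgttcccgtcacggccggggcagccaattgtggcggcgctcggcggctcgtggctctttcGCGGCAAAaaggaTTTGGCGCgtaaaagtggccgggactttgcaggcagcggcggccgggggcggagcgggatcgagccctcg
The ORC6 window had 0 matches, GINS3 had 1 and E2F1 had 2, so members with and without a word were found among those that did not share the lower level.

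Among the 6 subunits of the MCM2-7 helicase, which unwinds the template, all were lower with a vector at an unadjusted limma p under 0.05, with within-line changes from -0.75 to -0.20 in KHOS and from -1.19 to -0.58 in U-2OS. MCM6 (probe set 201930_at) read 11.43 on the KHOS control array, 10.71 with miR-null and 10.64 with miR-1, and in U-2OS 11.60, 10.51 and 10.32. Each vector array of MCM6 was thus below both controls, and its fitted change was -0.97 (95% interval -1.32 to -0.61, limma adjusted p = 0.0515). MCM2 (202107_s_at) had the smallest change of the ring. It read 9.71, 9.23 and 9.18 in KHOS and, in U-2OS, 9.44, 8.78 and 8.95, again with every vector array below both controls (-0.54 ± 0.13). MCM4 and MCM7 were nearer to the control in KHOS (-0.37 and -0.20) than in U-2OS (-1.07 and -1.01). A dimmer MCM4 probe set (242479_s_at) gave 0.04 over both lines.

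Of the 5 origin recognition and loading genes, CDT1, ORC1 and CDC6 were lower, ORC6 was higher and the interval of ORC3 included 0. CDT1 (228868_x_at), the loading factor that geminin inhibits, had the largest change. It read 8.81, 8.50 and 8.50 in KHOS and, in U-2OS, 8.46, 7.001 and 7.27, a fitted change of -0.82 ± 0.23 (limma adjusted p = 0.123). All 4 vector arrays of CDT1 lay below the control of their line, yet those of KHOS stood above the U-2OS control. A second CDT1 probe set (209832_s_at) gave -0.44, a smaller change than the -0.58 of ORC1. ORC3 (210028_s_at), a core ORC subunit, read 9.63, 9.77 and 9.61 in KHOS, where the arrays hardly differed, and 8.54, 7.89 and 8.08 in U-2OS, where both vector arrays were lower. ORC6 (219105_x_at) read 10.70, 10.90 and 11.11 in KHOS and, in U-2OS, 10.86, 11.27 and 11.21, so all 4 vector arrays stood above both controls. The unadjusted 95% interval of ORC6 was 0.04 to 0.65 and its limma adjusted p was 0.207. The probe sets of CDT1 and ORC6, like those of DUT and CHAF1A, are of the x_at kind, which can take up signal from related transcripts.

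Among the 6 genes of helicase activation, 5 were lower with an interval that excluded 0, and GINS3 was the exception. MCM10 (220651_s_at), a factor that starts unwinding, read 9.98, 9.19 and 9.39 in KHOS and, in U-2OS, 9.80, 9.06 and 8.85. Its vector arrays were below both controls, and its fitted change was -0.77 ± 0.14 (limma adjusted p = 0.0624). GINS3 (218719_s_at) read 8.09, 8.27 and 8.43 in KHOS and, in U-2OS, 8.37, 8.63 and 8.76, each vector array above its control, with an interval of -0.01 to 0.59. The partners of GINS3 in the same 4-subunit complex went the other way, at -0.64 (GINS1), -0.65 (GINS2) and -0.44 (GINS4). A second GINS2 probe set (1557595_at) gave 0.11, so the probe sets of GINS2 disagreed in sign.

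The sliding clamp and its loader were lower in all 5 members, and RFC3 alone had an interval that included 0. PCNA, the clamp itself, was at -0.77 ± 0.12, with -0.70 in KHOS and -0.83 in U-2OS. RFC5 (203209_at), a loader subunit, read 10.12, 9.43 and 9.46 in KHOS and, in U-2OS, 9.65, 8.74 and 8.62. Every vector array of RFC5 was below both controls, and the change was -0.82 ± 0.14 (limma adjusted p = 0.0515). RFC3 (204127_at), another loader subunit, read 10.83, 10.55 and 10.67 in KHOS and, in U-2OS, 10.01, 9.85 and 9.72, which puts all 4 vector arrays below their own control by small steps (-0.23 ± 0.13).

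All 9 polymerase and primase genes had lower fitted levels, and 6 intervals excluded 0. POLA1 (204835_at) read 8.91, 8.35 and 8.38 in KHOS and, in U-2OS, 8.05, 6.95 and 6.61. Both vector arrays of each line were below that line's control, with no KHOS array as low as the U-2OS control, and the fitted change was -0.91 ± 0.20 (limma adjusted p = 0.0693). POLE2, the second subunit of polymerase epsilon, was at -0.78 ± 0.13 and PRIM1, the catalytic primase subunit, at -0.71 ± 0.13, each by similar amounts in both lines. The smallest change was in POLD3 (212836_at), an accessory subunit of polymerase delta, which read 8.49, 8.44 and 8.38 in KHOS and, in U-2OS, 8.45, 8.13 and 8.02. Its vector arrays were below both controls by little (-0.23 ± 0.13), and a second POLD3 probe set (239816_at) gave 0.10. The catalytic subunits of the leading and lagging strand polymerases, POLE and POLD1, were at -0.30 and -0.55.

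In Okazaki fragment maturation and single-strand binding, 3 of 5 intervals excluded 0, those of RPA1, LIG1 and FEN1. RPA1 (201528_at), the large subunit of replication protein A, read 12.07, 11.48 and 11.27 in KHOS and, in U-2OS, 10.99, 10.35 and 10.21. Its arrays separated by treatment within each line, and the change of -0.70 ± 0.13 was nearly the same in both (-0.69 and -0.71). A dimmer RPA1 probe set (236675_at) gave -0.06. RPA2 (201756_at), the middle subunit, read 9.98, 10.03 and 10.05 in KHOS and, in U-2OS, 10.03, 9.72 and 9.53. Here the KHOS vector arrays were slightly above their control and the U-2OS ones below it, for a fitted -0.17 ± 0.15. FEN1, the flap nuclease, and LIG1, the ligase that seals the fragments, were at -0.58 ± 0.12 and -0.62 ± 0.15.

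All 5 genes of nucleotide supply were lower, within -0.66 to -0.55 in KHOS and within -1.16 to -0.44 in U-2OS, and all 5 intervals excluded 0. DUT (208956_x_at), the dUTPase that keeps uracil out of DNA, read 13.01, 12.47 and 12.45 in KHOS and, in U-2OS, 12.42, 11.44 and 11.08. Its vector arrays were below the control in each line (-0.85 ± 0.18, limma adjusted p = 0.0693), and the other DUT probe sets gave -0.77 and -1.25. RRM1 (201477_s_at), the large subunit of ribonucleotide reductase, read 12.03, 11.44 and 11.48 in KHOS and, in U-2OS, 11.37, 10.98 and 10.89. It had the smallest change of the group, at -0.50 ± 0.12, again with lower vector arrays in both lines. RRM2, the small reductase subunit, TYMS, the thymidylate synthase, and TK1, the thymidine kinase, lay close together at -0.67, -0.66 and -0.69.

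The 3 E2F factors differed among themselves, and 2 of 3 intervals excluded 0. E2F8 (219990_at) read 7.94, 7.10 and 7.21 in KHOS and, in U-2OS, 6.93, 5.56 and 5.19, so that the U-2OS miR-1 array was near the minimum level. All vector arrays of E2F8 were below their control, and the change was -1.17 (95% interval -1.65 to -0.69, limma adjusted p = 0.06). E2F1 (204947_at), an activating E2F, read 8.54, 8.13 and 8.21 in KHOS and, in U-2OS, 8.63, 8.68 and 8.76. Its vector arrays were below the control in KHOS and above it in U-2OS, with a fitted -0.14 ± 0.15. E2F2, another activator, was at -0.66 ± 0.17 and lower in both lines.

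Of the 5 chromatin genes that act behind the fork, 4 had an interval below 0. HELLS (227350_at) read 10.36, 9.36 and 9.56 in KHOS and, in U-2OS, 7.27, 6.12 and 5.71, with both vector arrays well below the control in each line. Its change was -1.13 (95% interval -1.55 to -0.71, limma adjusted p = 0.0515), and its 4 probe sets above the minimum level ranged from -1.13 to -0.35. UHRF1 and DNMT1, which together copy DNA methylation to the new strand, were at -0.81 ± 0.13 and -0.46 ± 0.14. The large subunit of chromatin assembly factor 1, CHAF1A, was at -0.39 ± 0.13. The middle subunit CHAF1B (204775_at) read 7.24, 6.98 and 6.86 in KHOS and, in U-2OS, 6.21, 6.28 and 6.38, lower with a vector in KHOS and higher in U-2OS (-0.10 ± 0.15).

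In fork protection, CLSPN and TIMELESS were lower with an interval that excluded 0, and TIPIN was not. CLSPN (243840_at), the adaptor that passes the ATR signal to CHK1, read 7.14, 6.42 and 6.35 in KHOS and, in U-2OS, 7.004, 6.14 and 6.26. Both lines gave nearly the same step, and all 4 vector arrays were below both controls (-0.78 ± 0.12, limma adjusted p = 0.0515). TIPIN (219258_at), the partner of TIMELESS, read 10.18, 9.98 and 9.84 in KHOS and, in U-2OS, 10.35, 10.21 and 10.32. Its U-2OS arrays lay close together (-0.18 ± 0.13), while TIMELESS was at -0.65 ± 0.13.

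The other genes of the pathway, 61 of 62 listed with a probe set of their own symbol, were shifted less. Their median vector change was -0.29, with 48 of 61 lower, 23 lower and 2 higher at an unadjusted limma p under 0.05, and 0 at the adjusted threshold. TOP2A, topoisomerase II alpha, was lowest (-1.27 ± 0.21, limma adjusted p = 0.0518), followed by RBL1, the p107 pocket protein (-0.93 ± 0.20). The highest were E2F7, the closest relative of E2F8 (0.81 ± 0.16, limma adjusted p = 0.063), and ASF1A, a histone chaperone (0.34 ± 0.14). The atypical repressors E2F7 and E2F8 therefore had opposite signs on the same arrays.

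**Figure D2:**
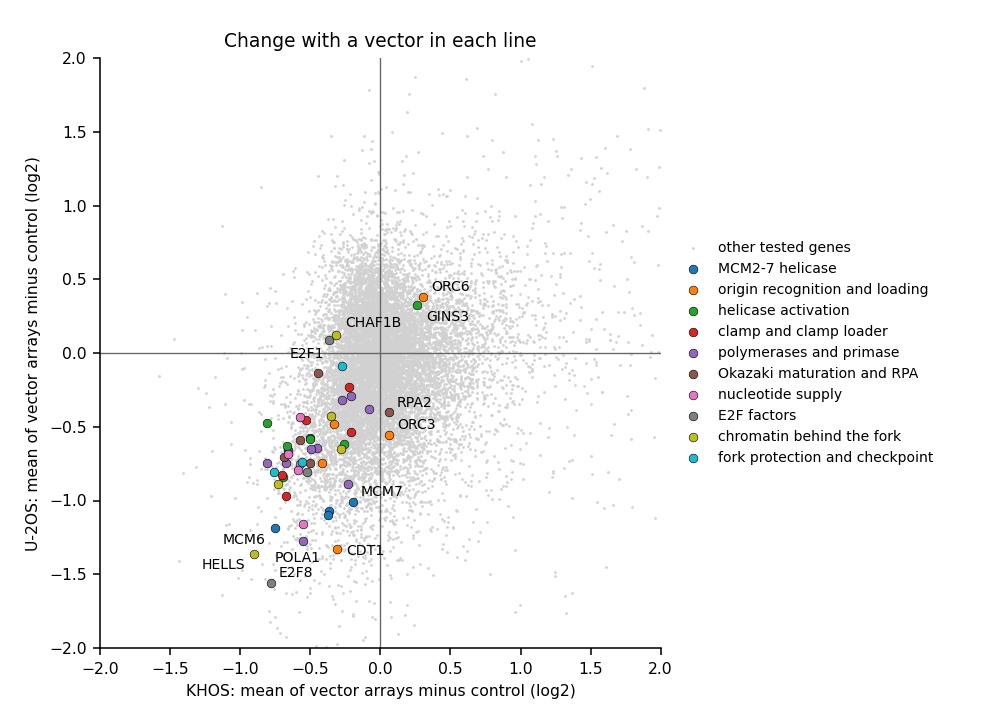
Mean of the miR-null and miR-1 arrays minus the control array (log2) in KHOS (horizontal) and U-2OS (vertical); coloured points are the 52 members by role and grey points the other tested genes, of which 70 lie outside the axes. The members gather in the lower left quadrant, where 46 of 52 lie, while ORC6 and GINS3 are in the upper right.

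Whether the change with a vector differed between the lines was tested as an interaction of line and vector. In this fit the residual spread was only how far both vectors lay apart inside each line, with 2 residual degrees of freedom. Each line had 1 control array, so variation among control cultures does not enter the SEs and p-values below. They therefore do not measure how well the line difference would repeat, and genes that pass are to be read with that limit. As deposited, 41 of 52 members had the lower value in U-2OS, but so did 62.3% of all genes, and after quantile normalization the count was 19 of 52, with 45.0% of all genes. The direction of this difference over the members therefore depended on the scaling. None of the 52 members passed on limma's adjusted p, against 2.28% of all genes, and 8 had an unadjusted p under 0.05 (15.4%, against 22.3%). On the probe sets used, the largest difference was in CDT1, whose U-2OS change was lower by 1.02 ± 0.25 (limma adjusted p = 0.0754). MCM7 (0.82 ± 0.23) and E2F8 (0.78 ± 0.28) followed. The second CDT1 probe set (209832_s_at) gave -0.19 in KHOS and -0.68 in U-2OS, beside -0.31 and -1.33 on the one used. With the miR-null array of U-2OS left out 3 members passed, and with its miR-1 array left out 1 did. Of the other pathway genes SAMHD1, a dNTP hydrolase (2.72 ± 0.44), ATR, the checkpoint kinase (1.43 ± 0.24), and E2F5, a repressing E2F (1.20 ± 0.23), passed, each higher with a vector in KHOS and lower in U-2OS.

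The series title names miR-1, which is abundant in striated muscle, and its vector was compared with the miR-null vector. Mature miR-1 is shown with its seed, bases 2 to 8, in capitals, as RefSeq gives it for MIR1-1 on chromosome 20 and MIR1-2 on chromosome 18 (GRCh38.p14). Its level in these cells was not analysed here.
miR-1-3p: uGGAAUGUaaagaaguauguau
The replication genes hardly differed between the 2 vectors. Their median difference was -0.02 (all genes -0.04), with every fitted value between -0.19 (DUT) and 0.18 (LIG1).

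None of the 52 members passed on limma's adjusted p, as was true of all genes (0%), and 0 had an unadjusted p under 0.05, against 0.602% of all genes. The direction was shared by the lines in 20 members, 11 with miR-1 lower and 9 with miR-1 higher, and was opposite in 32. No member was 1.2-fold lower in both lines (background 2.2%) or 1.2-fold higher in both (background 0.903%). Within 1 line the differences were wider, and they went from -0.45 (TK1) to 0.20 (ORC6) in KHOS and from -0.46 (E2F2) to 0.32 (LIG1) in U-2OS. TK1 showed how these steps opposed each other, with 8.90 on the miR-null and 8.45 on the miR-1 array of KHOS, and 9.19 and 9.40 in U-2OS. The 95% interval of the fitted difference reached 0.44 to either side at the median member and 0.70 at the widest. Over all genes tested, fitted differences ran from -0.99 to 1.30 and none passed, so these arrays could miss changes of that size as well.

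**Figure D3:**
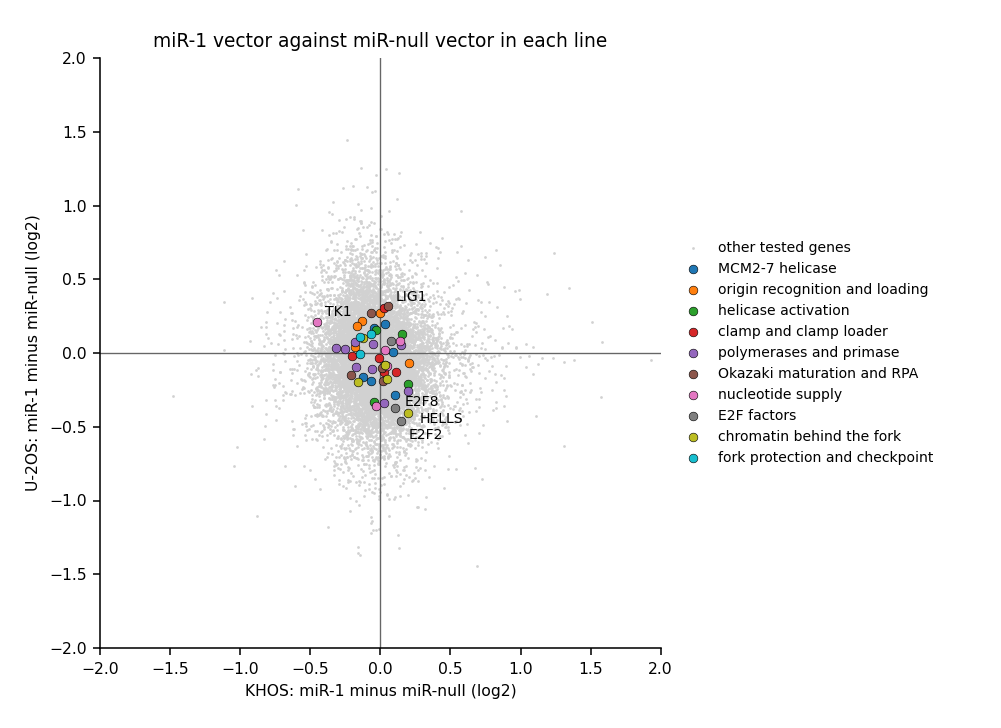
The miR-1 array minus the miR-null array (log2) in KHOS (horizontal) and U-2OS (vertical), 1 array each; coloured points are the 52 members by role and grey points the other tested genes, of which 2 lie outside the axes. The members surround the origin, and 32 of 52 have opposite signs in the 2 lines.

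The miR-null arrays alone were then set against control, which holds the vector without the microRNA. The member median was -0.58 (all genes -0.02), close to that of both vectors together. None passed on limma's adjusted p (0% of all genes; lowest adjusted p of a member 0.362), while 34 members were lower at an unadjusted p under 0.05, 65.4% against 5.87% of all genes. This comparison shares its control arrays and both miR-null arrays with the one of both vectors, so its median is not a separate result. Within the lines the median member change with miR-null was -0.45 in KHOS (all genes 0.02) and -0.66 in U-2OS (all genes -0.09).

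Between the lines, the members differed in both directions, with the widest gap in HELLS. By limma 25 of 52 members passed (48.1%, against 54.8% of all genes), 18 higher in KHOS (34.6%, background 30.3%) and 7 lower (13.5%, background 24.5%), with a median of 0.27. After quantile normalization 31 passed, 16 higher and 15 lower, with a member median of -0.02 against -0.18 for all genes. After median centring 27 passed, 21 higher and 6 lower. The share of all genes passing is not given here for these scalings, so the counts are not set against a background. The 3 arrays of one line lay wholly above or below those of the other in 22 members (42.3%, against 64.8% of all genes), 17 with KHOS higher and 5 with KHOS lower.

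The 6 values given above place every KHOS array of HELLS far over every U-2OS array, and its fitted difference was 3.39 ± 0.19, a 10.5-fold higher level in KHOS (limma adjusted p = 4.22e-05). Other HELLS probe sets gave smaller control-array gaps, of 2.65 (220085_at) and 1.87 (223556_at), beside 3.09 for the one used. MCM4 (222036_s_at) read 11.44, 11.02 and 11.12 in KHOS and, in U-2OS, 10.30, 9.37 and 9.09, without overlap, a difference of 1.61 ± 0.20 (limma adjusted p = 0.000987). E2F8 was 1.52 ± 0.21 higher in KHOS, where its lowest array still exceeded the U-2OS control. All 5 chromatin genes passed in this direction, with differences of 0.74 to 1.14 for CHAF1B, CHAF1A, UHRF1 and DNMT1.

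CDC45, the helicase cofactor that travels with MCM2-7 and GINS, was the lowest in KHOS relative to U-2OS. It read 8.45, 7.96 and 7.93 in KHOS and, in U-2OS, 9.62, 8.96 and 9.12, a difference of -1.12 ± 0.14 (limma adjusted p = 0.00102). PRIM1 (205053_at) read 9.63, 9.05 and 8.88 in KHOS and, in U-2OS, 10.50, 9.81 and 9.71 (-0.82 ± 0.14), and its highest KHOS array was below the lowest U-2OS one. TK1 (202338_at) read 9.26, 8.90 and 8.45 in KHOS and, in U-2OS, 10.09, 9.19 and 9.40. On the KHOS control array TK1 lay within the U-2OS range, and the difference was -0.69 ± 0.18 (limma adjusted p = 0.0174). Subunits of one complex thus differed in sign, with POLA1 at 1.34 ± 0.20 and its primase partners PRIM1 and PRIM2 at -0.82 and -0.65. GINS2 was at 0.78 and GINS1 at -0.46, but that contrast depends on the GINS2 probe set used. The dimmer one (1557595_at) gave KHOS minus U-2OS values of -0.26 for control, -0.55 for miR-null and -0.74 for miR-1.

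**Figure D4:**
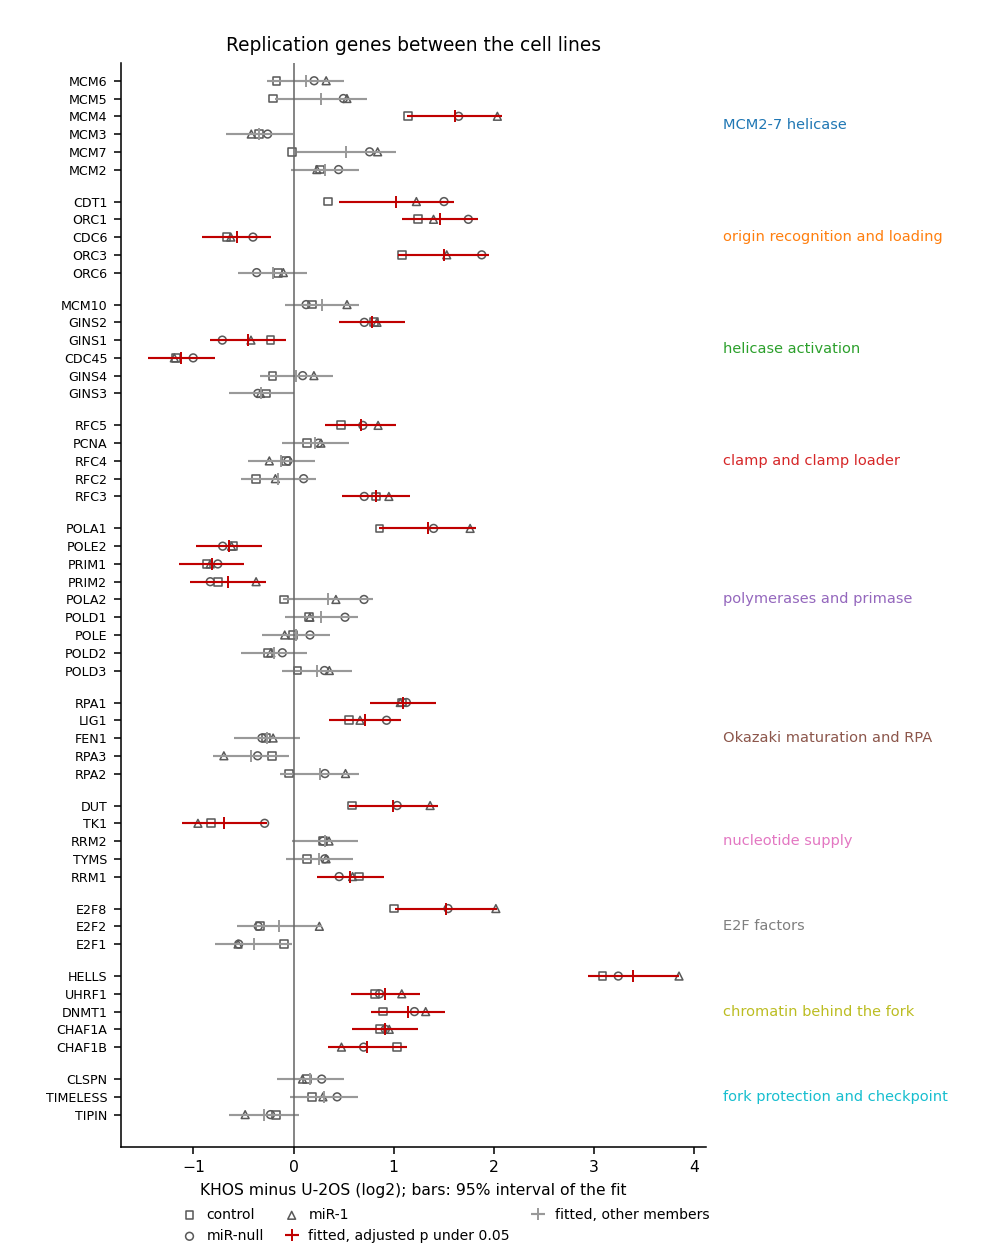
KHOS minus U-2OS (log2) for all 52 members by role; squares, circles and triangles are the control, miR-null and miR-1 array pairs, 1 array of each line, and the bars are fitted differences with their 95% intervals, red where limma's adjusted p is under 0.05. HELLS stands farthest to the right at 3.39 and CDC45 farthest to the left at -1.12.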

How the data were processed

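RNA from 6 pooled cultures was measured on Affymetrix U133 Plus 2.0 arrays. The authors deposited log2 values made with RMA in Qlucore 3.2, per the series' design text, and they were used as deposited. Interquartile ranges still differed between arrays (2.75 to 3.35), and RMA compresses differences at low levels. The number of arrays limits the precision. Each gene was represented by its probe set with the highest mean among those annotated with 1 symbol, and 12958 genes with a mean of at least 5.11, the median of all probe sets without the 62 control ones, were tested. Differences were fitted with limma 3.58.1 in R 4.3.3 (lmFit, eBayes) on all 6 arrays with line and treatment as additive terms, or with their interaction, and adjusted by Benjamini-Hochberg over all genes tested. Residual degrees of freedom were 3 for both vectors against control and 2 otherwise. The script was tested on simulated data. The members and lists were chosen with earlier results of these data known. Values on every array are given for the members with the largest and smallest vector change of each role and the 3 largest differences between the lines in each direction; other genes are named as examples chosen after their values were seen. Alternatives were other level minimums, normalization, choice of probe set, variance model, blocking, the design text's Mann-Whitney test and leaving out each array.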

Additional observations from a re-analysis of the deposited data

Results flagged for a closer look

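In 3 members both vector arrays of one line lay on the opposite side of their control from both vector arrays of the other line. For RPA2 the KHOS change exceeded that in U-2OS by 0.463, with both KHOS vector arrays above their control and both U-2OS ones below it. For E2F1 the KHOS change minus that in U-2OS was -0.454, and for CHAF1B it was -0.445, with the KHOS arrays lower and the U-2OS arrays higher. The dimmer E2F1 probe set (2028_s_at) did not share this and was lower with each vector in both lines. By limma's interaction term the adjusted p was 0.293 for RPA2, 0.286 for E2F1 and 0.303 for CHAF1B, so none of these differences passed.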

How the results depend on the processing

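The count of members with a negative vector change stayed between 45 and 50 under all alternatives run. The count passing on limma's adjusted p, 0 as reported, was 7 with no level minimum, 19 (of 47 tested) with the 75th percentile as minimum, 2 with quantile normalization, 10 (of 51) with the mean of probe sets, 1 (of 50) with the probe set of largest variance, 23 with limma's trended prior variance, 1 with every probe set tested separately, and 0 to 30 with 1 array left out. The share of all genes passing is not given beside these counts or the passing counts below. They are therefore not read as a result about the members. The count lower at an unadjusted p under 0.05 dropped from 40 to 15 without the line term (no replicate block). For miR-null against control the count was 1 with the trended prior and 0 to 21 with 1 array left out. The line difference in the vector change gave 1 with the 75th percentile, 2 with the trended prior and 0 to 3 with 1 array left out; it cannot be estimated without either control array. Between the lines 0 passed the Mann-Whitney test, whose smallest exact p here is 0.1, or 0.133 for 4 vector arrays against 2 controls. With 1 array left out, the vector change ranged from -0.319 to 0.13 for CHAF1B and -0.367 to 0.088 for E2F1, positive without the KHOS control, and from -0.402 to 0.061 for RPA2 and -0.557 to 0.064 for ORC3, positive without the U-2OS control, since the value then comes from 1 line. POLD3 became 0.10 with its more variable probe set. The cause of the other shifts was not tested.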
